A study of Rattus norvegicus with 12 samples.

Results

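The potassium channel genes of the rat were taken as all genes whose symbol starts with Kcn, and 87 of the 18166 genes measured with 1 symbol in the deposited table were chosen in this way. They came from 88 probe sets, since Kcnk6 had a pair of them, and no probe set that carries several genes held a Kcn symbol (0). Other Kcn genes were not analysed here. The samples were whole urinary bladders of female Sprague Dawley rats of about 3 months. In the denervated group the ganglia that supply the bladder had been frozen on both sides, and the bladders were taken 10 days later. The bladders of the sham group came from rats that had the surgery without the freezing. Total RNA was read on 12 arrays, 6 of each group, and the labels call the tissue almost wholly smooth muscle. They do not say outright that each array is a separate animal, so p-values measure the spread between these samples.

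Potassium channels let potassium leave the cell and so hold or return the membrane potential to negative values. In bladder smooth muscle this sets how readily calcium channels open, how large the spontaneous action potentials grow and how strongly the muscle contracts. Large-conductance calcium-activated (BK) channels and voltage-gated channels repolarise the action potential, while ATP-sensitive, inward rectifier and leak channels hold the resting potential. Many channels are built from pore-forming subunits with the help of auxiliary or electrically silent subunits, which change gating and surface expression without forming a working pore alone.

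Values are log2 expression, so that a difference of 1 is a doubling. One array, denervated replicate 2, differed from the rest of its group. Its score on the main axis of variation over all genes (58.0% of the variance) was -5.84, while its 5 companions scored 25.9 to 42.5 and sham arrays -30.2 to -22.5. Where the call of a Kcn or partner gene depends on it, values without it are also given. Calls of marker genes are from all 12 arrays. Of the 12 measured smooth muscle markers, 9 were lower after denervation, 1 higher and 2 not called, and 0 lay below the median of all genes in sham bladders. Of 15 urothelial markers 0 lay below it too, so the RNA came from urothelium as well as muscle. The muscle markers Acta2 and Cnn1 were not analysed here. The mean of the muscle markers was 10.6 to 11.07 in the other 5 denervated arrays, 11.29 in denervated replicate 2 and 11.29 to 11.49 in sham arrays. In whole tissue, fewer cells of a type and less RNA per cell cannot be told apart.

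Denervated bladders had lower levels of 11 of the 17 potassium channel genes that were brighter in sham bladders (64.7%, against 27.2% of all such genes). Of the 70 dim ones, 9 were higher (12.9%) and 6 lower (8.57%), near the 10.6% and 6.52% of all dim genes. A gene was called when its adjusted p in limma's moderated test was below 0.05 over all 18166 genes, and "rose" and "fell" are used of called genes. Of the 87 members, 17 fell, 9 rose and 61 were not called. Shares of 19.5% lower and 10.3% higher stood beside 16.9% and 11.9% of all genes, and 29.9% of members were called in all, against 28.7% of all genes. By the count alone the family was thus close to the background. The median change of the members was -0.06, against -0.04 over all genes. Falls of at least 0.5 on the log2 scale were made by 9 members (10.3%, against 4.91% of all genes) and rises of that size by 8 (9.2%, against 6.95%). Denervated and sham values had no overlap in 8 members that were lower and 5 that were higher, where 7.59% and 5.76% of all genes were so separated. Without denervated replicate 2, all 26 called members were called again, and 20 fell (20.2% of all genes) and 11 rose (14.4%). The 5 members gained were Kcne4, Kcnh8, Kcnk6, Kcnk7 and Kcnmb2.

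**Figure D1:**
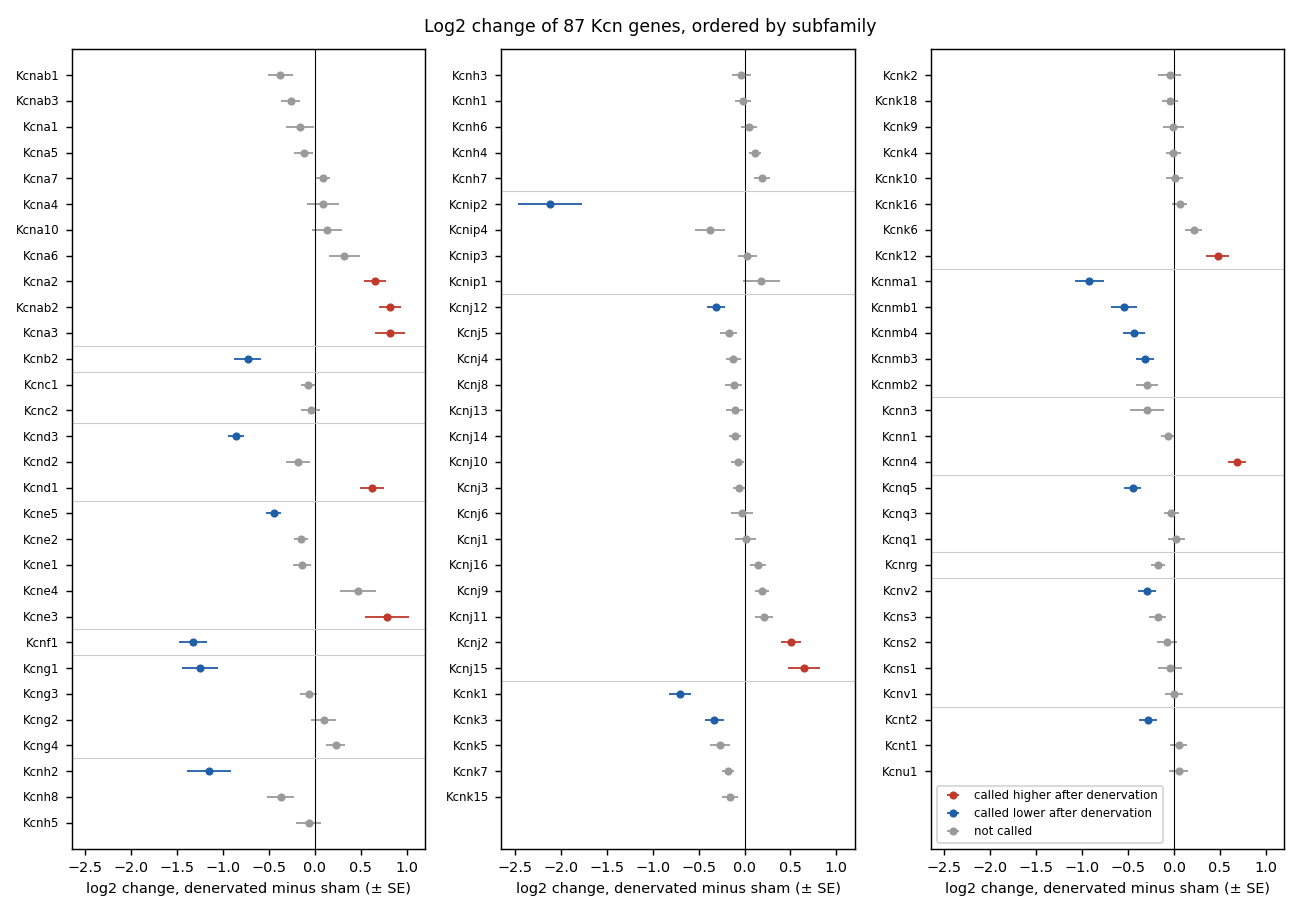
Log2 change (denervated minus sham, horizontal axis, point and SE) of each of the 87 Kcn genes, ordered by subfamily from Kcna in the left panel to Kcnu1 in the right one, with grey lines between subfamilies. Blue points are the 17 genes called lower, red points the 9 called higher and grey points the 61 not called, and Kcnip2 at -2.12 lies farthest from 0.

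The direction of the calls differed with brightness in sham bladders. Genes were classed as dim below the median of all genes in sham arrays (6.81), as middle up to the 75th percentile (8.35) and as bright above it. Brightness also depends on the probes, so the classes describe the strength of a signal and do not rank the genes by RNA. Of the members 70 were dim, 12 middle and 5 bright. Of the 17 middle or bright members, 11 fell (64.7%, against 27.2% of all middle or bright genes), 0 rose (13.1%) and 6 were not called. Of the 12 middle members 8 fell (23.2% of all middle genes), and of the 5 bright members 3 fell (31.2% of all bright genes). The medians of the change were -0.55 in these 17 members and -0.08 in all middle or bright genes. All 9 rises were those of dim members (12.9%, against 10.6% of all dim genes), and 6 dim members fell (8.57%, against 6.52%). The split is not sharp, as Kcnk12, which rose, had a sham mean of 6.80, just below the cut of 6.81. Kcnk3, which fell, was just above it at 6.84. A class taken from sham values shares them with the change. With classes from the mean of all 12 arrays, chosen after seeing the data, 8 of 15 middle or bright members fell (53.3%, against 25.9%) and 1 rose (6.67%, against 15.0%), which was Kcnk12. Of the 72 dim members by that mean, 8 rose (11.1%, against 8.68% of all such genes) and 9 fell (12.5%, against 7.82%). With these classes, rises did not outnumber falls among dim members. Without denervated replicate 2, 2 of the 17 were higher, Kcne4 and Kcnk6, and without sham replicate 1, 1 was, Kcne4.

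**Figure D2:**
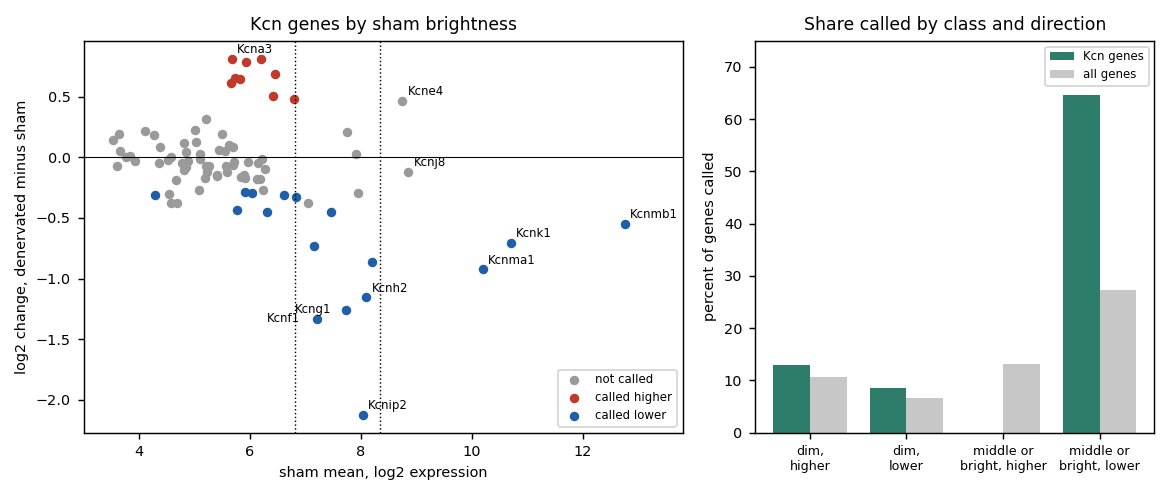
Left panel: log2 change (denervated minus sham, vertical axis) of the 87 Kcn genes against their sham mean (log2 expression, horizontal axis), with dotted lines at 6.81 and 8.35, the median and 75th percentile of all genes. Right panel: percent of genes called, by class and direction, for Kcn genes (green) and all genes (grey), where 64.7% of middle or bright Kcn genes were called lower, against 27.2% of all such genes.

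Of the 5 Kcn genes of the BK channel, 4 fell (80%, against 16.9% of all genes), 0 rose and 1 was not called, while 0 of 4 genes for its gamma subunits were called. Kcnma1 encodes its pore-forming subunit, which opens with depolarisation and with calcium. Its values in denervated arrays had a low of 8.81, a median of 9.19 and a high of 10.07, against a low of 10.08, a median of 10.18 and a high of 10.35 in sham arrays. All denervated values were thus below all sham values, but denervated replicate 2 was the one at 10.07 and the other 5 lay at 9.28 or below. The change was -0.92 ± 0.16 (SE, n = 6 per group, limma adjusted p = 0.00114), a level in denervated bladders 0.528 of that in sham bladders, and -1.08 without denervated replicate 2. Kcnmb1 encodes the beta subunit of smooth muscle, which raises the calcium sensitivity of the channel. It stood at 11.68 to 12.57 (median 12.35) in denervated arrays and 12.59 to 12.83 (median 12.78) in sham arrays, again without overlap. It fell by 0.55 on the log2 scale (SE 0.14, adjusted p = 0.0119). The dim beta subunit genes Kcnmb4, best known from neurons, and Kcnmb3 stood at -0.44 ± 0.12 and -0.31 ± 0.10 (adjusted p = 0.0178 and 0.0301), and Kcnmb2 was not called (-0.30 ± 0.12, adjusted p = 0.0785). Kcnmb2 was called lower without denervated replicate 2 (-0.36, adjusted p = 0.0265) and with array weights (-0.37, adjusted p = 0.0235). The call of Kcnmb3 ended on leaving out denervated replicate 3 or sham replicate 1, 3 or 4, with adjusted p up to 0.0689. It was also lost with array weights, the exact rank-sum test, the test against 1.2-fold and all probe sets tested. Kcnmb4 lost its call in the exact rank-sum test and the test against 1.2-fold.

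The 250 bases before the start of the genes of the BK pore and its smooth muscle beta subunit are shown because both genes fell. They are RefSeq sequences of build GRCr8, for Kcnma1 chr15:351675-351924 and for Kcnmb1 chr10:19061849-19062098, both on the plus strand. Capitals mark GGGCGG, the GC box, on either strand.
Kcnma1: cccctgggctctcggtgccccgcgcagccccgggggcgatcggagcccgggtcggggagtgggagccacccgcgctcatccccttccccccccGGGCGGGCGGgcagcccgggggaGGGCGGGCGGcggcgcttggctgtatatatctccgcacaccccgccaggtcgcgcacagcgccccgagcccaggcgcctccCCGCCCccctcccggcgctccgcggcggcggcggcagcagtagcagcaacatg
Kcnmb1: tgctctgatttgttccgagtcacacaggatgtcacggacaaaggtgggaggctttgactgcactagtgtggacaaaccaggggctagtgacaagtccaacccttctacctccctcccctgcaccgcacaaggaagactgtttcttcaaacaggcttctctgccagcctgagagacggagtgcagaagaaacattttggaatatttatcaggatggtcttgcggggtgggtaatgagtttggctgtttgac
The Kcnma1 window was 79.6% G and C and held 5 matches, in which neighbouring ones overlap, and the Kcnmb1 window was 50.8% G and C and held none (0). Promoters were found for 60 of the 87 members, with 66 entries. GGGCGG stood in 48.5% of these entries, against 30.5% of 33469 promoters of all genes. It was found for 6 of 11 members that fell, 4 of 6 that rose and 20 of 43 that were not called. The CArG box, the site of serum response factor, had 0 matches in the entries of the members, against 1.5% of all promoters. TGANTCA, the AP-1 site, stood in 3.03% of them (6.34% of all), TATAAA in 3.03% (12.9%) and CACGTG in 3.03% (5.59%). A match is a run of letters and not a measured site.

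The largest fall was that of Kcnip2, a calcium-binding subunit that speeds the traffic of Kv4 channels to the surface, where they carry a fast transient outward current. It stood at 5.35 to 5.82 in the other 5 denervated arrays, at 7.67 in denervated replicate 2 (median of all 6, 5.61) and at 7.56 to 8.51 in sham arrays (median 8.09). That single array lay inside the sham range. The change was -2.12 ± 0.35 (adjusted p = 0.000809), with a level in denervated bladders 0.230 of that in sham bladders, and -2.47 without denervated replicate 2. Kcnd3 encodes a pore-forming Kv4 subunit that works with Kcnip2. It was lower in every denervated array than in any sham array, with 7.06 to 7.57 (median 7.37), against 8.12 to 8.28 (median 8.21) in sham arrays. Its change of -0.86 ± 0.09 had the lowest adjusted p of the family (7.15e-05), and here denervated replicate 2, at 7.55, lay within the range of the other 5. Neither of the other Kv4 pore genes was called lower. Kcnd1, dim, rose by 0.62 ± 0.13 (adjusted p = 0.00358), with 5.84 to 6.56 (median 6.42) in denervated arrays and 5.48 to 5.88 (median 5.64) in sham arrays, which overlap by way of denervated replicate 2. Kcnd2 was not called (-0.18, adjusted p = 0.343). Of the other Kcnip genes, Kcnip3, which also acts as a calcium-dependent transcriptional repressor, stood at 7.93 ± 0.22 and 7.90 ± 0.14 in denervated and sham arrays (SD, n = 6 each, change 0.03), and Kcnip1 (0.18) and Kcnip4 (-0.37) were not called.

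The starts of Kcnd3 and Kcnip2 are shown as those of the Kv4 pore and its partner, which fell together, with GGGCGG in capitals. The windows are chr2:195626066-195626315, plus strand, and chr1:254613899-254614148, minus strand, of build GRCr8.
Kcnd3: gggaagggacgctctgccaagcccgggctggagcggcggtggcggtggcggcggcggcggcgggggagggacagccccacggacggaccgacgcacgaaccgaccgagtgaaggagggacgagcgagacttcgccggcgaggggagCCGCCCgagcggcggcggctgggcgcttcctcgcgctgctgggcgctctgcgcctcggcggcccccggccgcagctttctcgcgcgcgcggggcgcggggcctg
Kcnip2: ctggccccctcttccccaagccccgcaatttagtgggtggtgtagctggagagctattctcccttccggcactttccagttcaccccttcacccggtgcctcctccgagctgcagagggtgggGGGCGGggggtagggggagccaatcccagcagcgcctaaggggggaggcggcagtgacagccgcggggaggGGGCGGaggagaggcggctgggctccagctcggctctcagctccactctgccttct
The first holds 1 match and the second 2.

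Kv2 channels carry a slowly inactivating delayed rectifier current, and electrically silent subunits form mixed channels with them. Kcnb2 encodes a pore-forming Kv2 subunit. It fell by 0.73 on the log2 scale (SE 0.15, adjusted p = 0.00277), with 6.08 to 6.99 (median 6.40) in denervated arrays and 6.91 to 7.44 (median 7.12) in sham arrays. The overlap came from denervated replicate 2, at 6.99, as the other 5 reached 6.54 at most. Among 10 silent subunits, 3 fell (30%, against 16.9% of all genes), 0 rose and 7 were not called. Kcnf1 stood at 5.38 to 6.44 (median 5.90) in denervated arrays, against 6.92 to 7.62 (median 7.18) in sham arrays. It fell by 1.33 (SE 0.16, adjusted p = 0.000129), to a level 0.398 of that in sham bladders. Kcng1 stood at 5.75 to 7.31 (median 6.53) in denervated arrays, against 7.59 to 7.91 (median 7.73) in sham arrays, and fell by 1.26 (SE 0.19, adjusted p = 0.000579). In both genes the groups did not overlap and denervated replicate 2 was the highest denervated array. Kcnv2 was dim and stood at -0.29 ± 0.10 (adjusted p = 0.0418). Its call was lost in 9 of the 12 fits that left out an array, with adjusted p up to 0.0927. Amigo1, a membrane protein that binds Kv2 channels, fell by 0.31 (SE 0.09, adjusted p = 0.0222), a call lost without sham replicate 6 or denervated replicate 5 (adjusted p up to 0.0526).

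**Figure D3:**
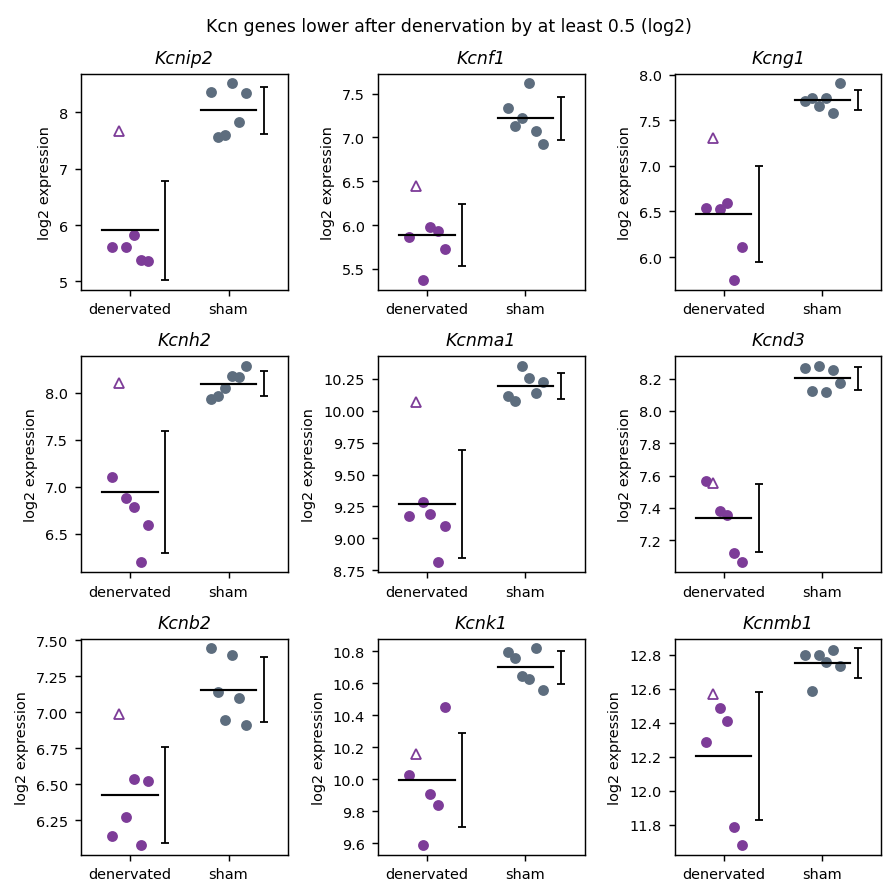
Log2 expression (vertical axis, each panel with its own range) of the 9 Kcn genes that fell by at least 0.5, with denervated arrays left and sham arrays right. Points are arrays, the open triangle is denervated replicate 2, horizontal lines are means and bars are SD (n = 6 each). In every panel except Kcnd3 and Kcnk1 the triangle lies nearer the sham arrays than the other 5 denervated arrays do.

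Kcnh2 encodes the pore of the ERG channel, a slowly closing delayed rectifier. It had 6.19 to 7.11 in the other 5 denervated arrays, 8.10 in denervated replicate 2 (median of all 6, 6.83) and 7.93 to 8.28 (median 8.11) in sham arrays. The change was -1.15 ± 0.24 (adjusted p = 0.00305) and -1.39 without denervated replicate 2. With the exact rank-sum test its adjusted p was 0.0576. The other 7 Kcnh genes were dim and not called, between -0.37 (Kcnh8) and 0.19 (Kcnh7). Kcnh8 was called lower without denervated replicate 2 (-0.46, adjusted p = 0.0147), with arrays centred on their medians, with array weights and with the replicate block. Of the 3 Kcnq genes measured, which encode Kv7 channels that open near the resting potential, Kcnq5 fell by 0.45 (SE 0.09, adjusted p = 0.00242). Its values of 6.76 to 7.23 in denervated arrays did not overlap the 7.35 to 7.59 of sham arrays. Kcnq1 (0.03 ± 0.09) and Kcnq3 (-0.03) were dim and not called. The Kcne genes encode small single-span subunits that reshape Kv7 and other currents, and they differed among themselves. Kcne5 fell by 0.45 (SE 0.08, adjusted p = 0.00129), with 5.74 to 5.96 in denervated arrays and 6.18 to 6.65 in sham arrays. Kcne3, which in epithelia keeps Kcnq1 channels open, had 6.63 to 7.36 in the other 5 denervated arrays, 5.58 in denervated replicate 2 (median of all 6, 6.76) and 5.48 to 6.20 (median 5.96) in sham arrays. It rose by 0.78 ± 0.24 (adjusted p = 0.0266), and by 1.01 without denervated replicate 2. The call ended on leaving out denervated replicate 3, 4 or 5 or sham replicate 1 (adjusted p up to 0.0618). Kcne4, the bright member of the subfamily, was at 9.21 ± 0.42 in denervated and 8.74 ± 0.35 in sham arrays and was not called (0.47 ± 0.20, adjusted p = 0.0950). It was called without denervated replicate 2 (0.57, adjusted p = 0.0367).

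Of 13 genes for tandem-pore leak channels, 2 fell, 1 rose and 10 were not called, and the shares of 15.4% lower and 7.69% higher were near the 16.9% and 11.9% of all genes. Kcnk1, a weak background channel that cycles through internal membranes, was bright, with 9.59 to 10.46 (median 9.97) in denervated arrays and 10.56 to 10.82 (median 10.70) in sham arrays. The groups did not overlap, and the fall was 0.71 on the log2 scale (SE 0.12, adjusted p = 0.000957). In the same arrays 14 of 15 urothelial markers fell and 0 rose, with list means of 9.69 to 10.15 in denervated and 10.51 to 10.77 in sham arrays and 0 markers dim in sham, and the part of the urothelium in this fall was not tested. Kcnk3, an acid-sensitive leak channel, fell by 0.33 (SE 0.10, adjusted p = 0.0273). Leaving out denervated replicate 4, 5 or 6, or sham replicate 1 or 6, ended that call (adjusted p up to 0.0623). Kcnk12, which carries little current of its own, rose by 0.48 ± 0.13 (adjusted p = 0.0119). The stretch-sensitive leak channel Kcnk2 was not called (-0.05 ± 0.13), nor was Kcnk6 (0.21 ± 0.09, adjusted p = 0.0937). Kcnk6 was called without denervated replicate 2 (0.28, adjusted p = 0.00763), and its other probe set gave 0.22. Kcnk7 was dim and not called (-0.18 ± 0.07, adjusted p = 0.0553), but was called lower without denervated replicate 2 (-0.22, adjusted p = 0.0105) and in 4 other alternatives.

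Inward rectifiers pass current best near and below the potassium equilibrium potential. Among the 15 Kcnj genes, 1 fell, 2 rose and 12 did not pass, and all but Kcnj8 were dim. The 20% called was near the 17.2% of all dim genes. Kcnj2, a strong inward rectifier of muscle, vessels and macrophages, had 6.60 to 7.32 (median 6.86) in denervated arrays and 6.17 to 6.56 (median 6.46) in sham arrays, without overlap. It rose by 0.51 ± 0.11 (adjusted p = 0.00419). Its close relative Kcnj12 fell by 0.31 (SE 0.10, adjusted p = 0.0261), a call that ended on leaving out denervated replicate 3 or sham replicate 4 or 5 (adjusted p up to 0.0603). Kcnj15, an inward rectifier of epithelia, rose by 0.65 ± 0.18 (adjusted p = 0.0138), with 6.25 to 7.27 in the other 5 denervated arrays, 5.84 in denervated replicate 2 (median of all 6, 6.47) and 5.68 to 5.97 (median 5.81) in sham arrays. Kcnj8 encodes the pore of the ATP-sensitive channel of smooth muscle and pericytes. It ran from 8.39 to 8.89 (median 8.77) in denervated arrays and from 8.68 to 9.04 (median 8.85) in sham arrays, which overlap. It was not called (-0.12 ± 0.09, adjusted p = 0.381), and Kcnj11, the other pore gene of these channels, was dim and not called (0.21 ± 0.10). Abcc9, whose product is the regulatory sulfonylurea receptor of the Kcnj8 channel, did fall. It had 8.83 to 9.40 in the other 5 denervated arrays, 9.98 in denervated replicate 2 and 9.88 to 10.07 in sham arrays (-0.67 ± 0.15, adjusted p = 0.00553). With the exact rank-sum test its adjusted p was 0.0850. Abcc9 neighbours Kcnj8 in the RefSeq gene order. Of the 8 pericyte markers chosen without this pair, 2 rose and 2 fell, with list means of 7.98 to 8.46 in denervated and 7.84 to 8.18 in sham arrays and 2 markers dim in sham.

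Small- and intermediate-conductance calcium-activated channels open with calcium alone. Kcnn4, the intermediate-conductance channel of blood cells and of proliferating smooth muscle and fibroblasts, had 6.76 to 7.35 (median 7.21) in denervated arrays and 6.30 to 6.66 (median 6.44) in sham arrays. All denervated arrays lay above all sham arrays, and the rise was 0.68 ± 0.10 (adjusted p = 0.000453), or 1.61-fold. Kcnn3, a small-conductance channel that restrains bladder contraction in mice, was at 7.65 ± 0.50 in denervated and 7.94 ± 0.09 in sham arrays and was not called (-0.29 ± 0.18, adjusted p = 0.268). Its denervated arrays ran from 6.84 to 8.12 and thus spanned the sham range of 7.84 to 8.09. Kcnn1 was dim and not called (-0.06).

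Kv1 channels are low-threshold delayed rectifiers of axons, vessels and lymphocytes. Of 8 Kcna pore genes, all dim in sham bladders, 2 rose (25%, against 10.6% of all dim genes), 0 fell and 6 were not called. Kcna3, the main voltage-gated channel of T cells and also found in macrophages, had 6.07 to 7.03 (median 6.48) in denervated arrays and 5.26 to 5.89 (median 5.72) in sham arrays. It rose by 0.81 ± 0.16 (adjusted p = 0.00260), or 1.76-fold. Kcna2, known from axons and smooth muscle, had 6.05 to 6.80 (median 6.37) in denervated arrays and 5.53 to 6.02 (median 5.72) in sham arrays. It rose by 0.65 ± 0.12 (adjusted p = 0.00166). The groups did not overlap in either gene. Kcnab2, a cytoplasmic beta subunit of Kv1 channels, had 6.68 to 7.49 (median 6.91) in denervated arrays, against 6.11 to 6.28 (median 6.20) in sham arrays, and rose by 0.81 ± 0.12 (adjusted p = 0.000413), or 1.76-fold. Kcnab1 was in the middle class and not called (-0.38 ± 0.13, adjusted p = 0.0518), although it was called lower in 8 of 23 alternatives, among them a further quantile normalization, a trended variance and leaving out denervated replicate 3 or 5 or sham replicate 1, and Kcnab3 was dim (-0.27). Kcna5, a delayed rectifier of vessels and heart, was not called (-0.12 ± 0.11).

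Kcna3 and Kcna2 are next to each other on chromosome 2, followed by Kcna10, which was not called (0.13). No other adjacent members were both called, as shown by Kcnj16 (0.14) and Kcnj2, Kcnj6 (-0.03) and Kcnj15, or Kcnip1 (0.18) and Kcnmb1. The starts of the neighbours that rose are shown with GGGCGG in capitals, as chr2:197320074-197320323 and chr2:197393280-197393529 of build GRCr8, both on the plus strand.
Kcna3: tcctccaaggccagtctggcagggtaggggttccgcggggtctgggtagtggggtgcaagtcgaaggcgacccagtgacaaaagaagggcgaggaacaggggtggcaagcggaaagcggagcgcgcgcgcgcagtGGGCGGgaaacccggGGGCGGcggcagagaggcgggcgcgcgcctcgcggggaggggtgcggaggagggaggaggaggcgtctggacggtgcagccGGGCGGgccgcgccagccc
Kcna2: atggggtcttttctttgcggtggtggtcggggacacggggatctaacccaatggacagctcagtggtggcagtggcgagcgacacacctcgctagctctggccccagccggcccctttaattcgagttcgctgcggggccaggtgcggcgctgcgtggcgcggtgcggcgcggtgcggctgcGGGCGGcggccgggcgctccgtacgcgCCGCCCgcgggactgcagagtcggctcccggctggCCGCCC
Each window holds 3 matches.

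**Figure D4:**
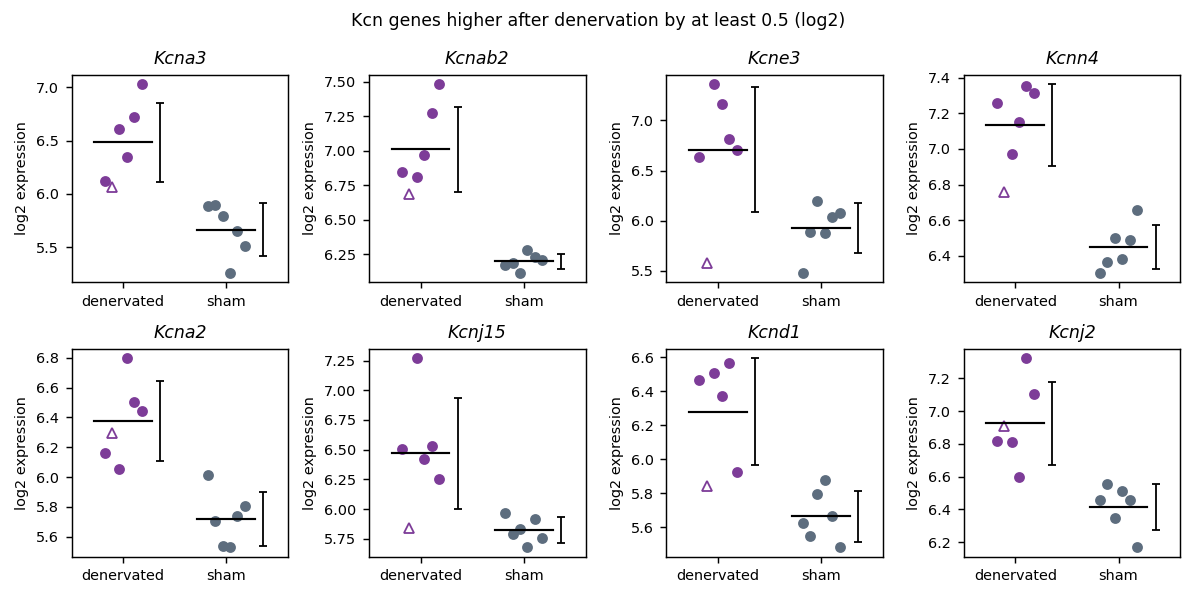
Log2 expression (vertical axis, each panel with its own range) of the 8 Kcn genes that rose by at least 0.5, with denervated arrays left and sham arrays right. Points are arrays, the open triangle is denervated replicate 2, horizontal lines are means and bars are SD (n = 6 each), and in Kcne3, Kcnj15 and Kcnd1 the triangle lies within the sham range.

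Many markers of immune cells and of dividing cells also rose between the groups. Of 18 macrophage markers 17 rose and 0 fell, with list means of 9.39 to 10.33 in denervated and 8.41 to 8.61 in sham arrays and 2 markers dim in sham. Of 18 lymphocyte markers 12 rose and 0 fell, with means of 6.06 to 7.21 in denervated and 5.57 to 5.75 in sham arrays, and 17 were dim in sham. All 11 proliferation markers rose, with 7.66 to 8.27 in the other 5 denervated arrays, 6.31 in denervated replicate 2 and 5.55 to 7.17 in sham arrays, and 10 were dim in sham. Their part in the rises of Kcna3, Kcnn4, Kcnj2 and Kcnab2 was not tested. Of 13 Schwann cell markers 7 fell and 0 rose, with means of 6.05 to 6.27 in the other 5 denervated arrays, 6.74 in denervated replicate 2 and 6.92 to 7.06 in sham arrays, and 7 were dim in sham. Of 21 neuron markers 4 fell and 1 rose, with means of 5.57 to 5.80 in denervated and 5.90 to 6.05 in sham arrays, and 16 were dim in sham. The part of these cells in the falls was not tested. Endothelial markers rose in 8 of 12 (means of 8.06 to 8.37 in denervated and 7.73 to 7.84 in sham arrays, with 3 dim in sham). Fibroblast and interstitial markers rose in 5 of 11 and fell in 1 (means of 10.14 to 10.93 in denervated and 10.07 to 10.28 in sham arrays, with 2 dim in sham).

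**Figure D5:**
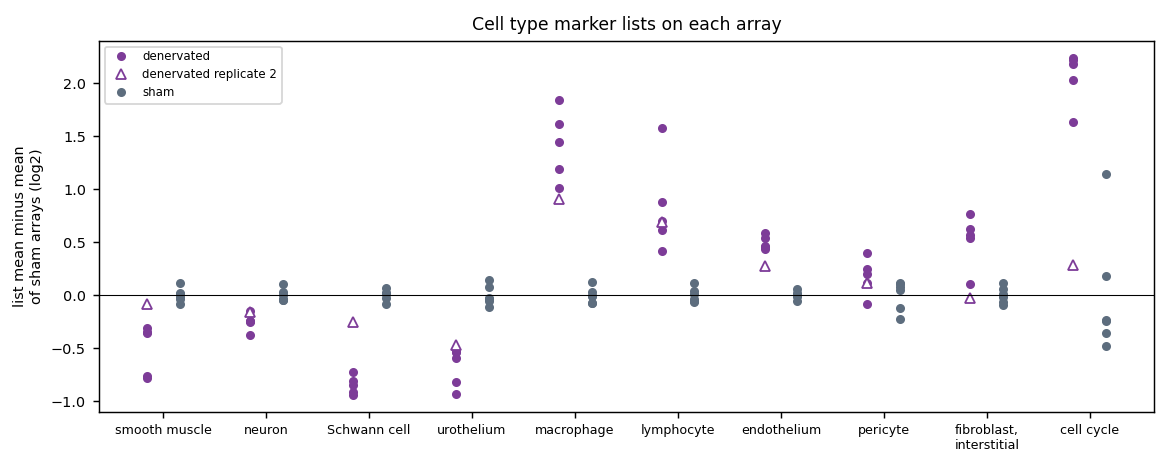
Mean log2 expression of 10 marker lists on each array, minus the mean of the sham arrays (vertical axis, log2), with denervated arrays left of sham arrays in each list. The open triangle is denervated replicate 2, which for smooth muscle (11.29 before subtraction) lies above the other 5 denervated arrays.

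Since the smooth muscle markers fell too, by 0.44 in their mean, the 17 middle or bright members were also set against that mean array by array, a comparison added after seeing the data. A two-sided exact permutation test over all 924 regroupings of the arrays was run for each of the 17, and 0.00216 is the smallest p it can give. The p-values are not adjusted for the 17 comparisons. The 17 were classed by their sham values, which the comparison uses again. Relative to the markers, Kcnip2 (-1.68, exact p = 0.00649), Kcnf1 (-0.89, 0.00216), Kcng1 (-0.81, 0.00216), Kcnh2 (-0.71, 0.013), Kcnma1 (-0.48, 0.00866) and Kcnd3 (-0.42, 0.00216) were lower in denervated arrays than in sham arrays. Without denervated replicate 2 these 6 relative changes ran from -1.96 to -0.39. The markers themselves changed unequally on the deposited scale, from -0.99 (Mylk) to 0.51 (Smtn). Kcnma1 (-0.92) and Kcnd3 (-0.86) lay inside that range on the same scale. Kcnip2, Kcnf1, Kcng1 and Kcnh2 fell by more than any of these smooth muscle markers. Scn7a of the Schwann cell list (-3.15) and Nefl of the neuron list (-2.23) fell by more than Kcnip2. In these lists 6 and 16 markers were not called, and the part of those cells in the falls was not tested. For Kcnb2 (-0.29, exact p = 0.106), Kcnk1 (-0.26, 0.208), Kcnmb1 (-0.10, 0.156) and Kcnq5 (-0.01, 0.955) the relative change did not pass the threshold. Kcnk3, lower on the deposited scale, was higher relative to the markers (0.11, exact p = 0.0108). Members not called on the deposited scale were also higher relative to the markers, namely Kcne4 (0.91, exact p = 0.0152), Kcnk6 (0.65, 0.0108), Kcnip3 (0.47, 0.00866) and Kcnj8 (0.32, 0.0108), while Kcnn3 (0.15, exact p = 0.227) and Kcnab1 (0.07, 0.69) did not pass. A gene without any change would stand about 0.44 higher on this scale, since the mean of the markers fell by that much. The exact p of Kcnk3 and of these members therefore does not show a rise of the genes themselves. These values show unequal change within an array and not which of the genes changed.

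The remaining members gave 1 call. Kcnt2, a sodium-activated channel, stood at -0.29 ± 0.10 (adjusted p = 0.0433), and its call was lost in 9 of the 12 fits that left out an array. Kcnt1 (0.05), Kcnu1 (0.05), Kcnc1 (-0.07), Kcnc2 (-0.05) and Kcnrg (-0.17) were dim and not called. Over the 61 members not called, changes ran from -0.38 (Kcnab1) to 0.47 (Kcne4), and 55 of them were dim. By role, 9 of 60 pore-forming genes fell and 7 rose, 5 of 17 auxiliary or modulatory genes fell and 2 rose, and 3 of 10 silent subunits fell and 0 rose. The pore-forming shares of 15% lower and 11.7% higher were near the 16.9% and 11.9% of all genes, and the shares lower were 29.4% for auxiliary genes and 30% for silent subunits. The spread between arrays was wider after denervation, with a median SD over members of 0.206 in denervated and 0.154 in sham arrays, and over all genes of 0.179 in denervated and 0.123 in sham arrays.

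Of 32 measured genes of potassium transport and channel partners outside the Kcn symbols, 4 rose and 6 fell, against 11.9% and 16.9% of all genes. The sodium-potassium pump exchanges sodium for potassium, and its small FXYD partners tune its affinity. The pump's beta subunit gene Atp1b1 rose by 1.18 ± 0.15 (adjusted p = 0.000176), with 9.04 to 9.99 in denervated arrays and 8.20 to 8.71 in sham arrays. Another beta subunit gene, Atp1b2, fell by 1.01 (SE 0.20, adjusted p = 0.00218), with 6.19 to 6.75 in the other 5 denervated arrays, 7.63 in denervated replicate 2 and 7.53 to 7.78 in sham arrays. With the exact rank-sum test its adjusted p was 0.0576. Of the FXYD genes, Fxyd6 (1.43 ± 0.23, adjusted p = 0.000709), Fxyd5 (1.30 ± 0.20, adjusted p = 0.000559) and Fxyd2 (0.71 ± 0.12, adjusted p = 0.00119) rose. Fxyd1, phospholemman of muscle, fell by 0.72 (SE 0.14, adjusted p = 0.00188), with 10.37 to 11.31 in denervated arrays and 11.38 to 11.76 in sham arrays, and Fxyd3 fell by 0.46 (SE 0.08, adjusted p = 0.00111). Fxyd4 was dim and not called (-0.17, adjusted p = 0.227), but was called lower without denervated replicate 2 (-0.24, adjusted p = 0.0397). The potassium-chloride cotransporter Slc12a7 fell by 0.40 (SE 0.10, adjusted p = 0.00851). The BK gamma subunit genes Lrrc26, Lrrc38, Lrrc52 and Lrrc55 were dim, with changes of -0.11, -0.09, -0.19 and -0.40, and were not called, and Dpp6 (0.01) and Dpp10 (-0.01), partners of Kv4 channels, were not called either.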

How the data were processed

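Total RNA of bladders was read on 12 arrays (6 denervated, 6 sham). The authors deposited log2 expression values for 36685 probe sets, made by RMA (background correction, quantile normalization and probe set summary) in Affymetrix Expression Console 1.4.1.46, per the submitters' processing notes. The genome build of the array was not given in the sources used here. Detection calls were not used. The number of arrays limits the precision.

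Groups and replicate numbers came from the sample titles. The platform's table names 19086 probe sets, leaves 17599 unnamed here and gives several genes to 575, which were not used under a gene name. The other 18511 were matched by gene identifier to RefSeq (assembly GRCr8, 18394 matched, 0 symbols updated), and the probe set with the highest mean stood for a gene. Values were tested as deposited in R 4.3.3 with limma 3.58.1 (lmFit, eBayes, default settings, denervated minus sham, two-sided), with Benjamini-Hochberg adjustment over 18166 genes and a threshold of 0.05. The script was tested on simulated data. The files hold no array batch or date. Alternatives were a further normalization, centring, filters on dim genes, other variance models and tests, other ways to treat probe sets, leaving out each array, and the replicate number as a block.

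Named were all called members, the 10 brightest in sham, a list of channel genes of smooth muscle, the called partners and Abcc9. Per-array values go to called members that changed by at least 0.5 and to Kcnma1, Kcnmb1 and Kcnj8. Other members and partners were named as examples after their values were seen. The members and lists were chosen with earlier results of these data known. Some genes on the naming list are not reported here.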

Additional observations from a re-analysis of the deposited data

Results flagged for a closer look

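Among 46 named genes, 92 groups of 6 arrays were examined for a value that lay far from the rest of its group by Dixon's criterion, and 7 were found, where chance gives about 1 in 20. In 3 of them the array was denervated replicate 2. There Kcnip2 was high at 7.67 (next highest 5.82, lowest 5.35), Kcnma1 was high at 10.07 (next 9.28, lowest 8.81) and Fxyd5 was low at 8.89 (next 9.87, highest 10.43). The others concerned 1 gene in 1 array each. Kcnj8 was low at 8.39 in denervated replicate 6 (next 8.76), Kcnk2 was high at 6.71 in denervated replicate 5 (next 6.10), and Kcnmb4 was low at 4.96 in denervated replicate 3 (next 5.31). Kcne5 was high at 6.65 in sham replicate 3 (next 6.34), away from the denervated arrays.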

How the results depend on the processing

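In 23 alternatives no named gene changed sign as a call (0). Of the 26 called members, 10 were called in every alternative that tested them (Kcna2, Kcna3, Kcnab2, Kcnd3, Kcnf1, Kcng1, Kcnip2, Kcnk1, Kcnma1 and Kcnn4), and 20 in every fit that left out an array. Testing only genes above the median gene, which leaves 15 members, gave 9 lower (31% of all genes so tested) and 1 higher (17.2%). The share of all genes called thus changed with the setting. Most counts below are given without it, so their shifts cannot be told from shifts over all genes. The exact rank-sum test gave 11 lower (13.3% of all genes), 2 of them dim. It lost Kcne3, Kcnh2, Kcnk12, Kcnk3, Kcnmb3, Kcnmb4, Kcnt2 and Kcnv2. A test against 1.2-fold gave 7 lower (7 middle or bright, 0 dim), 4 higher (4 dim) and 6 partner genes. With all probe sets tested, 2 dim members were lower. Array weights and classes from all arrays each gave 1 middle or bright member higher. Leaving out arrays gave 8 to 11 members higher and 14 to 20 lower, and 9 to 11 partner genes. Of dim members 8 to 10 were higher and 3 to 9 lower (3 without sham replicate 4 or 5 or denervated replicate 3). Of middle or bright members 0 to 2 were higher and 10 to 12 lower. Without denervated replicate 2, 11 members were higher and 20 lower, beside 14.4% and 20.2% of all genes. With all arrays those shares of all genes were 11.9% and 16.9%. With the replicate number as a block 9 members were higher and 16 lower, with Kcnk3, Kcnt2 and Kcnv2 lost and Kcnh8 and Kcnk5 gained, and 9 partner genes were called. Whether the numbers pair the samples was not settled. Same-numbered arrays deviated from their group means with correlations of -0.112 to 0.101, and values near 0 cannot show that no pairing exists. The median of all genes in sham, 6.81, separates signals whose height over background is unknown, so the 70 dim members are the least certain.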
